A study of Mus musculus with 6 samples.

Results

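A set of 39 genes of liver metabolism was followed through 6 RNA sequencing libraries of epididymal white adipose tissue (eWAT), an abdominal fat depot, from mice fed a high-fat diet for 16 weeks. The genes were chosen by symbol as enzymes and carriers of the urea cycle, amino acid breakdown, the methionine cycle, gluconeogenesis and urate breakdown, and all 39 were found among the 54532 gene identifiers of the count table. The knockout group had 3 libraries from mice with floxed PD-1 alleles (PD-1 fl/fl) and Lyz2-Cre, a recombinase driven in the myeloid lineage, which includes macrophages and neutrophils. The control group had 3 libraries from PD-1 fl/fl littermates without Cre, so both groups carried the floxed alleles and both were on the high-fat diet. Neither age nor sex of the mice is given in the sources used here. Whole fat was sequenced, in which myeloid cells are 1 of several cell types. Replicate numbers follow the order in which the samples are listed.

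The liver turns the nitrogen of amino acids into urea, and the enzymes for this are concentrated around the portal vein, while glutamine synthetase catches the remaining ammonia in the last hepatocytes around the central vein. Hepatocytes also break down histidine, tyrosine, tryptophan, glycine and proline, recycle methionine through S-adenosylmethionine, and make glucose from the carbon that is left. Adipocytes are known for making and releasing glutamine, and macrophages for arginase and for enzymes of the kynurenine pathway.

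Library totals were 22813206 to 25441746 counts in knockouts and 20108185 to 27225533 counts in controls. Values below are CPM, the counts of a gene relative to a library total that was scaled by TMM to correct for differences in RNA composition. The libraries differed in tissue content, and this touches every result. Alb, the hepatocyte gene of serum albumin, had 123, 18646 and 1483 counts in the knockout libraries and 197, 1662139 and 105789 counts in the control libraries. The 12 hepatocyte markers averaged 1.08, 5.39 and 2.54 in knockouts, as log2(CPM + 1), and 1.32, 12.3 and 7.54 in the controls, and 8 adipocyte markers averaged 10.3, 9.82 and 11.2 in knockouts, as log2(CPM + 1), and 11.3, 5.45 and 10.7 in the controls. Control replicate 2 was therefore low in adipocyte markers and high in hepatocyte markers, against its label as fat, and control replicate 3 and knockout replicate 2 held hepatocyte transcripts too. In bulk tissue, fewer cells of a type and less RNA per cell cannot be told apart. Summed hepatocyte markers ranged from 91.6 to 1140 CPM in knockouts and from 126 to 214360.4 CPM in controls. Macrophage markers averaged 7.62, 7.90 and 6.18 in knockouts, as log2(CPM + 1), and 5.87, 4.35 and 5.75 in the controls. Cd163 on that list did not follow its mean, with 46.5, 27.9 and 76.3 CPM in knockouts and 88.2, 25.04 and 66.4 CPM in controls. Of 7 kidney tubule markers, Slc34a1 and Slc22a6 had 0 counts in all 6 libraries, and the list summed to 0.948 to 2.60 CPM in knockouts and 3.85 to 7.19 CPM in controls, led by Lrp2 in control replicate 3 and Slc22a12 in control replicate 1. Of 5 pancreas markers, Cel, Pnlip and Amy2a5 had 0 counts in all 6, and Cela1 had 80.7, 59.9 and 104 CPM in knockouts and 77.5, 71.01 and 53.7 CPM in controls. The 7 epididymis markers summed to 1.28 to 3.89 CPM in knockouts and 2.95 to 38.99 CPM in controls, where Crisp1 had 38.7 CPM in control replicate 1. The 5 enterocyte markers summed to 0.621 to 3.26 CPM in knockouts and 2.96 to 675 CPM in controls. The top of that range was Fabp2, with 673 CPM in control replicate 2, where Slc5a1 had 2.06 CPM and Vil1, Sis and Lct had 0 counts. Cyp7a1 had 0 counts in knockout replicates 1 and 3 and control replicate 1, and Fga, Fgb, Serpinc1 and Cyp3a11 had 0 counts in control replicate 1. Pdcd1, the deleted gene, had 19, 19 and 5 counts in the knockout libraries against 13, 0 and 0 in the control libraries, too few to check the labels.

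The promoters of 5 of these genes are shown because they set the members with the highest level in control replicate 2 beside Glul, the member with the highest FPKM in each other library. They are the 4 members with the highest FPKM in control replicate 2 among those with a RefSeq promoter on build GRCm38.p6, and Glul. Each runs from 250 bases before to 50 bases after the start, 5′ to 3′ on the strand of the gene, and capitals mark CG dinucleotides.
Gnmt (chr17:46729116-46729415, minus strand): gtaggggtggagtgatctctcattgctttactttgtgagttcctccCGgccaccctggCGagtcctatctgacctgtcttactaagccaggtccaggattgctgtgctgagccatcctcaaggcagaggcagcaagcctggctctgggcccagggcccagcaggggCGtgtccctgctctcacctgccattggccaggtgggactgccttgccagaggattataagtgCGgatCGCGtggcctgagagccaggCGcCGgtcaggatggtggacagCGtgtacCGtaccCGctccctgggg
Uox (chr3:146596899-146597198, plus strand): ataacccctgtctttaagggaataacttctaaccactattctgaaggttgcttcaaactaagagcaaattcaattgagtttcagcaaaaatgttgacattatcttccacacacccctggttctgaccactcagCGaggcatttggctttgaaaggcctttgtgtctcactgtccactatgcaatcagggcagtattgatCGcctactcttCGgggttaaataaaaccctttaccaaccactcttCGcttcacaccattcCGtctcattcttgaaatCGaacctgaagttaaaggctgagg
Hpd (chr5:123182674-123182973, minus strand): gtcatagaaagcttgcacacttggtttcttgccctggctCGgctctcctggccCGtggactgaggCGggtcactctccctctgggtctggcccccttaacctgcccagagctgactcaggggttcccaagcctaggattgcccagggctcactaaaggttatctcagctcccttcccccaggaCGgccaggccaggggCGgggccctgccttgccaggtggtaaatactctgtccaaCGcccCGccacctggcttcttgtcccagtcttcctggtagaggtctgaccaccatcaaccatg
Ass1 (chr2:31470020-31470319, plus strand): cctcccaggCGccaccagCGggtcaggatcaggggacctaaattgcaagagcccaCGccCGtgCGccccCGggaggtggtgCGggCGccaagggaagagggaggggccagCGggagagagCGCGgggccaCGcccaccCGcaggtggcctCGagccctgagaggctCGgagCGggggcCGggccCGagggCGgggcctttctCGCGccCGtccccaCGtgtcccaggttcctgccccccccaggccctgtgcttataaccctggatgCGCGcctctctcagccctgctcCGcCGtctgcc
Glul (chr1:153899679-153899978, plus strand): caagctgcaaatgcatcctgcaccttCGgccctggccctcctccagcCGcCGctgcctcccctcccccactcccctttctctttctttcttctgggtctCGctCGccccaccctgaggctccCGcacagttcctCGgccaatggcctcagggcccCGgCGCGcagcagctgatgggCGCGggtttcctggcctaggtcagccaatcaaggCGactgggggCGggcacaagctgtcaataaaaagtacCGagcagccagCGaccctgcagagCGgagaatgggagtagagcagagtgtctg
Uox holds 6 CG dinucleotides, Hpd 7 and Gnmt 11, while Glul holds 17 and Ass1 27. A promoter was found for 30 of the 39 genes, all but Cps1, Asl, Arg1, Gls2, Kynu, Sds, Sdsl, Cth and Mat1a. The RefSeq start of Uox lies inside the GENCODE span of the gene given below. Of these, 21 belonged to 27 genes that stood in knockout replicate 1 and control replicate 1 at no more than 0.5% of their level in control replicate 2, a limit set after the values were seen. These 21 promoters held a median of 6 CG dinucleotides (range 0 to 27), and the 9 promoters of the other 12 genes a median of 17 (range 10 to 22). The median over the promoters of 27025 genes was 7. The letters TTGCNNAA, a core of C/EBP sites searched on both strands, occurred in 4 of the 21 promoters (Aass, Hal, Hgd and Uox), in 0 of the 9 and in 10.8% of all promoters, and in Uox the match begins 171 bases before the start. GTTAAT, a core of HNF1 sites searched on both strands, occurred in 3 of the 21 (Ftcd, G6pc and Haao), in 0 of the 9 and in 7.20% of all. AAAGTCC, a core of HNF4 sites searched on both strands, occurred in 1 of the 21 (Hgd), in 0 of the 9 and in 4.25% of all. TATAAA on the strand of the gene occurred in 3 of the 21 (Ftcd, G6pc and Tdo2), in 0 of the 9 and in 8.88% of all. A promoter can hold several motifs, as Ftcd and G6pc hold both GTTAAT and TATAAA, and no test was made on these counts.

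Cps1, Otc and Nags were nearly confined to the libraries with hepatocyte transcripts, while Ass1, Asl, Arg1 and the carrier gene Slc25a15 had counts in every library. Cps1 (chromosome 1, 67123026 to 67231259, plus strand, mm10), the mitochondrial carbamoyl phosphate synthetase that starts the cycle, had 0, 15.4 and 0.349 CPM in knockouts and 0, 3885 and 158 CPM in controls. Otc, which joins carbamoyl phosphate to ornithine, had 0, 5.16 and 0.621 CPM in knockouts and 0, 1130.3 and 37.1 CPM in controls. Nags makes the cofactor that activates CPS1 and had 0, 0.701 and 0.194 CPM in knockouts and 0, 72.98 and 3.67 CPM in controls. All 3 mitochondrial enzymes were at 0 counts in knockout replicate 1 and control replicate 1, and highest in control replicate 2. Ass1, argininosuccinate synthetase, had 8.86, 21.8 and 7.06 CPM in knockouts and 4.49, 3206 and 135 CPM in controls. Asl, argininosuccinate lyase, had 21.9, 28.5 and 26.04 CPM in knockouts and 23.8, 988 and 41.03 CPM in controls. Slc25a15, the ornithine carrier of the mitochondrial membrane, had 15.7, 17.99 and 16.3 CPM in knockouts and 13.1, 668 and 46.5 CPM in controls. These 3 were read in every library, and outside control replicates 2 and 3 they stood at 28.5 CPM or less. Arg1, the cytosolic arginase that releases urea, had 1.83, 37.3 and 0.970 CPM in knockouts and 11.5, 2437 and 79.5 CPM in controls. It was low in knockout replicates 1 and 3 and higher in knockout replicate 2 and in each control. Gls2, the liver glutaminase, had 0.392, 1.96 and 0.699 CPM in knockouts and 0.412, 468 and 17.6 CPM in controls, and it was below 1 CPM in knockout replicates 1 and 3 and control replicate 1.

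Glul (chromosome 1, 153899944 to 153909723, plus strand) behaved unlike the other nitrogen genes. This gene of glutamine synthetase had 795, 974 and 1242 CPM in knockouts and 1755, 1362 and 1084 CPM in controls, and the groups overlapped. By FPKM, which is scaled per kilobase and so allows genes to be compared within a library, it ranked first of the 39 in each library except control replicate 2. It had 213, 269 and 326 FPKM in knockouts and 458, 384 and 292 FPKM in controls, and in control replicate 2 it ranked 16 of 39.

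The histidine pathway was read mainly in the same 3 libraries. Hal, histidine ammonia lyase, had 0.229, 2.53 and 0.0776 CPM in knockouts and 0.374, 394 and 19.4 CPM in controls. Uroc1, urocanate hydratase, had 0, 2.21 and 0.388 CPM in knockouts and 0, 382 and 22.5 CPM in controls. Amdhd1, which opens the imidazolone ring, had 0.0980, 1.61 and 0.582 CPM in knockouts and 0, 279.8 and 13.7 CPM in controls. Ftcd, which passes the last carbon to folate, had 0.392, 4.10 and 0.116 CPM in knockouts and 0.150, 709 and 22.1 CPM in controls. The order of control replicate 2, control replicate 3 and knockout replicate 2 held for all 4 genes, and the other 3 libraries were below 1 CPM.

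In tyrosine breakdown the early and the late steps differed. Tat, the tyrosine aminotransferase that responds to glucocorticoids, had 0.0980, 13.6 and 0.699 CPM in knockouts and 0.150, 1055 and 115 CPM in controls. Hpd, the dioxygenase that makes homogentisate, had 0.131, 20.3 and 2.02 CPM in knockouts and 1.69, 2828 and 124 CPM in controls. Hgd, homogentisate dioxygenase, had 0, 6.94 and 0.310 CPM in knockouts and 0, 1276 and 46.9 CPM in controls. The early genes were at most 2.02 CPM in knockout replicates 1 and 3 and control replicate 1. Gstz1 (chromosome 12, 87147165 to 87164723, plus strand), maleylacetoacetate isomerase, had 530.2, 327 and 835 CPM in knockouts and 1109, 1242 and 765 CPM in controls. Fah (chromosome 7, 84585159 to 84606722, minus strand), the fumarylacetoacetase of the last step, had 99.1, 79.1 and 179 CPM in knockouts and 378, 1277 and 170.1 CPM in controls. Both late genes were read at 79.1 CPM or more in every library, and in both the groups overlapped through knockout replicate 3 and control replicate 3.

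The tryptophan genes were highest in control replicate 2 and stood at 82.5 CPM or less in the other libraries. Tdo2, the hepatic tryptophan dioxygenase, had 0.490, 14.1 and 1.98 CPM in knockouts and 0.487, 3463 and 82.5 CPM in controls. Afmid, kynurenine formamidase, had 2.03, 1.75 and 1.36 CPM in knockouts and 0.487, 38.4 and 1.39 CPM in controls. Of its exon length, 44.2% is shared on the same strand with the annotated gene Gm20708, so its counts are uncertain. Kmo, kynurenine monooxygenase, had 2.19, 5.23 and 2.33 CPM in knockouts and 1.80, 622 and 25.6 CPM in controls. Kynu, kynureninase, had 0.294, 1.72 and 0.272 CPM in knockouts and 0, 254 and 12.6 CPM in controls. Haao, which makes the precursor of quinolinate, had 0.719, 7.23 and 1.63 CPM in knockouts and 0.449, 879 and 40.4 CPM in controls. Kmo and Kynu are also macrophage genes by background. Macrophage markers had their highest list means in knockout replicates 1 and 2. Kmo stood there at 2.19 and 5.23 CPM and Kynu at 0.294 and 1.72 CPM.

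Among the serine, glycine, lysine and proline genes, Prodh and Gldc had each knockout library below each control library. They were the only 2 of the 39 genes in that order, against 5.61% of all genes tested. Prodh (chromosome 16, 18060357 to 18090203, minus strand), the proline dehydrogenase of the inner mitochondrial membrane, had 15.1, 14.3 and 23.9 CPM in knockouts and 66.4, 292 and 44.4 CPM in controls. Gldc, the decarboxylase of the glycine cleavage system, had 2.88, 1.79 and 1.59 CPM in knockouts and 3.03, 127 and 9.09 CPM in controls. The gap in Gldc was narrow, between 2.88 CPM in knockout replicate 1 and 3.03 CPM in control replicate 1. Sds, serine dehydratase, had 0.0980, 1.40 and 0.194 CPM in knockouts and 0, 412 and 10.3 CPM in controls. Sdsl, a relative of Sds, had 15.4, 13.9 and 33.03 CPM in knockouts and 20.5, 17.1 and 14.6 CPM in controls. Sdsl was the member with the flattest profile apart from Glul, and knockout replicate 3 was its highest library. Agxt, the peroxisomal alanine-glyoxylate aminotransferase, had 0, 2.31 and 0.116 CPM in knockouts and 0, 441 and 11.3 CPM in controls. Aass, which starts lysine breakdown, had 1.05, 4.24 and 0.272 CPM in knockouts and 1.09, 737 and 29.4 CPM in controls. Agxt and Aass followed the order of the hepatocyte markers in control replicates 2 and 3 and knockout replicate 2.

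The methionine cycle joined liver genes to a branch read in every library. Mat1a, the methionine adenosyltransferase of adult liver, had 0, 26.8 and 2.13 CPM in knockouts and 0, 5595 and 228 CPM in controls. Gnmt, which uses up S-adenosylmethionine, had 0.163, 18.2 and 1.79 CPM in knockouts and 0.449, 2404 and 101 CPM in controls. Bhmt, which remakes methionine from homocysteine with betaine, had 0.0327, 35.9 and 1.44 CPM in knockouts and 0, 6151 and 239.8 CPM in controls. Mat1a and Bhmt had 0 counts in control replicate 1, and in knockout replicate 1 Mat1a had 0 counts and Bhmt 1. Ahcy, which splits S-adenosylhomocysteine in all cells, had 24.5, 39.8 and 23.5 CPM in knockouts and 32.5, 3426 and 110.1 CPM in controls. Cbs, cystathionine beta-synthase, had 3.60, 7.26 and 10.7 CPM in knockouts and 6.55, 473 and 35.3 CPM in controls. Cth, cystathionine gamma-lyase, had 12.4, 10.5 and 14.4 CPM in knockouts and 5.73, 725 and 31.5 CPM in controls. These 3 genes were read in every library.

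The sugar genes and Uox stood under 1 CPM in knockout replicate 1 and control replicate 1. Fbp1, the fructose bisphosphatase of gluconeogenesis, had 0.0327, 9.22 and 1.01 CPM in knockouts and 0.637, 1915 and 78.5 CPM in controls. G6pc, the glucose-6-phosphatase that releases free glucose, had 0, 3.37 and 0.505 CPM in knockouts and 0.187, 329 and 19.8 CPM in controls. Pklr, the pyruvate kinase of liver and red cells, had 0, 2.03 and 0.233 CPM in knockouts and 0.112, 254 and 21.4 CPM in controls. Uox (chromosome 3, 146570426 to 146632305, plus strand), urate oxidase of peroxisomes, had 0, 27.04 and 0.893 CPM in knockouts and 0.187, 7472 and 246 CPM in controls. It had the highest value of any member in control replicate 2 on the CPM scale. With fewer than 3 counts taken as the floor, knockout replicates 1, 2 and 3 had 12, 0 and 1 of the 39 genes at it, against 11, 0 and 0 for control replicates 1, 2 and 3. Control replicate 2 was the highest library in 37 of the 39 genes, all but Glul and Sdsl, against 31.2% of all genes tested. Control replicate 2 above control replicate 3 above knockout replicate 2 above the 3 others was the order in 30 of the 39, against 4.3% of all genes. These libraries were singled out for their liver transcripts, so nothing is read from these counts.

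**Figure D1:**
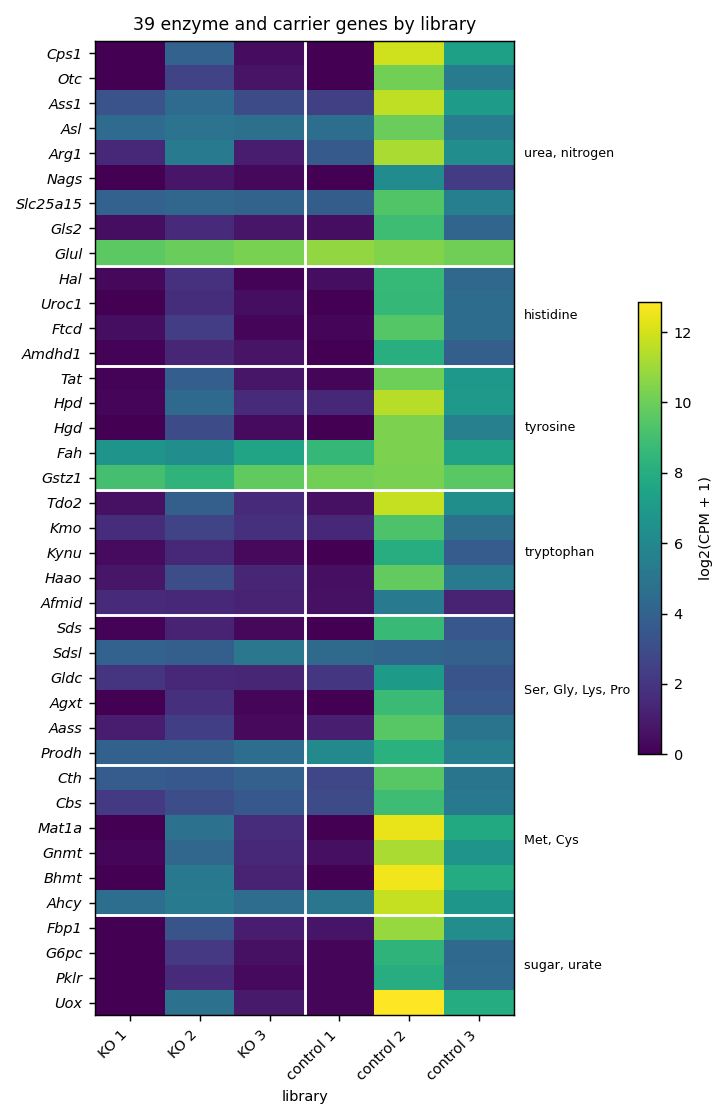
Heat map of the 39 genes (rows, grouped by pathway) in 6 libraries (columns, 3 knockout (KO) left of 3 control), coloured by log2(CPM + 1). Control replicate 2 is brightest in 37 of the 39 genes, and control replicate 3 and knockout replicate 2 come next for most genes. Glul, Gstz1, Fah, Sdsl, Asl, Ahcy, Slc25a15 and Prodh are among the genes visible in every library.

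The 39 genes together took 0.187%, 0.226% and 0.261% of all counts in knockouts and 0.337%, 3.32% and 0.483% in controls. Glul, Gstz1 and Fah, picked after their values were seen, took 0.171%, 0.172% and 0.242% in the knockout libraries and 0.318%, 0.216% and 0.227% in the control libraries. The other 36 genes took 0.0157%, 0.0535% and 0.0193% in knockouts and 0.0193%, 3.10% and 0.256% in controls. The 3 genes thus held the larger share in each knockout and in control replicate 1, and the smaller share in control replicates 2 and 3.

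The level of each gene was next expressed as a percent of its level in control replicate 2, with each library on its own. The libraries to compare were named with their liver content known, so these ratios are a description. Over the 27 genes at or under 0.5% in knockout replicate 1 and control replicate 1, the median was 0.579% in knockout replicate 2 (range 0.341% to 1.53%) and 4.10% in control replicate 3 (range 2.38% to 10.9%). In knockout replicate 3 it was 0.0572%. Of the 12 hepatocyte markers, the 11 other than Trf, which is also read in fat, had medians of 0.658% in knockout replicate 2, 0.0392% in knockout replicate 3 and 3.23% in control replicate 3. Arg1 was the gene of the 27 nearest under the limit, at 0.473% in control replicate 1, and Ahcy the nearest above it, at 0.714% in knockout replicate 1 and 0.950% in control replicate 1.

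The 27 genes were not at 1 common ratio. Intervals here are exact 95% intervals for a ratio of counts, and they cover counting error only. Tat stood highest in control replicate 3, at 1.29% (1.16% to 1.43%) in knockout replicate 2 and 10.9% (10.4% to 11.3%) in control replicate 3. Tdo2 stood lowest in control replicate 3, at 0.408% (0.369% to 0.450%) in knockout replicate 2 and 2.38% (2.28% to 2.49%) in control replicate 3. Tat was thus above the median of the 27 genes and Tdo2 below it in both libraries. Their intervals did not overlap in knockout replicate 2, and in control replicate 3 the gap follows from picking the highest and lowest gene. Sds was low in both, at 0.341% (0.243% to 0.464%) in knockout replicate 2 and 2.49% (2.20% to 2.81%) in control replicate 3. G6pc was high in both, at 1.02% (0.826% to 1.25%) and 6.00% (5.47% to 6.57%) in the same libraries. Both ratios of a gene share control replicate 2 below the line, so a low or high value there moves them together. Arg1 had 1.53% (1.44% to 1.63%) in knockout replicate 2, the highest of the 27 genes there, and 3.26% (3.12% to 3.41%) in control replicate 3, below the median. By list mean, macrophage markers were highest in knockout replicate 2, and their part in the Arg1 value was not tested.

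**Figure D2:**
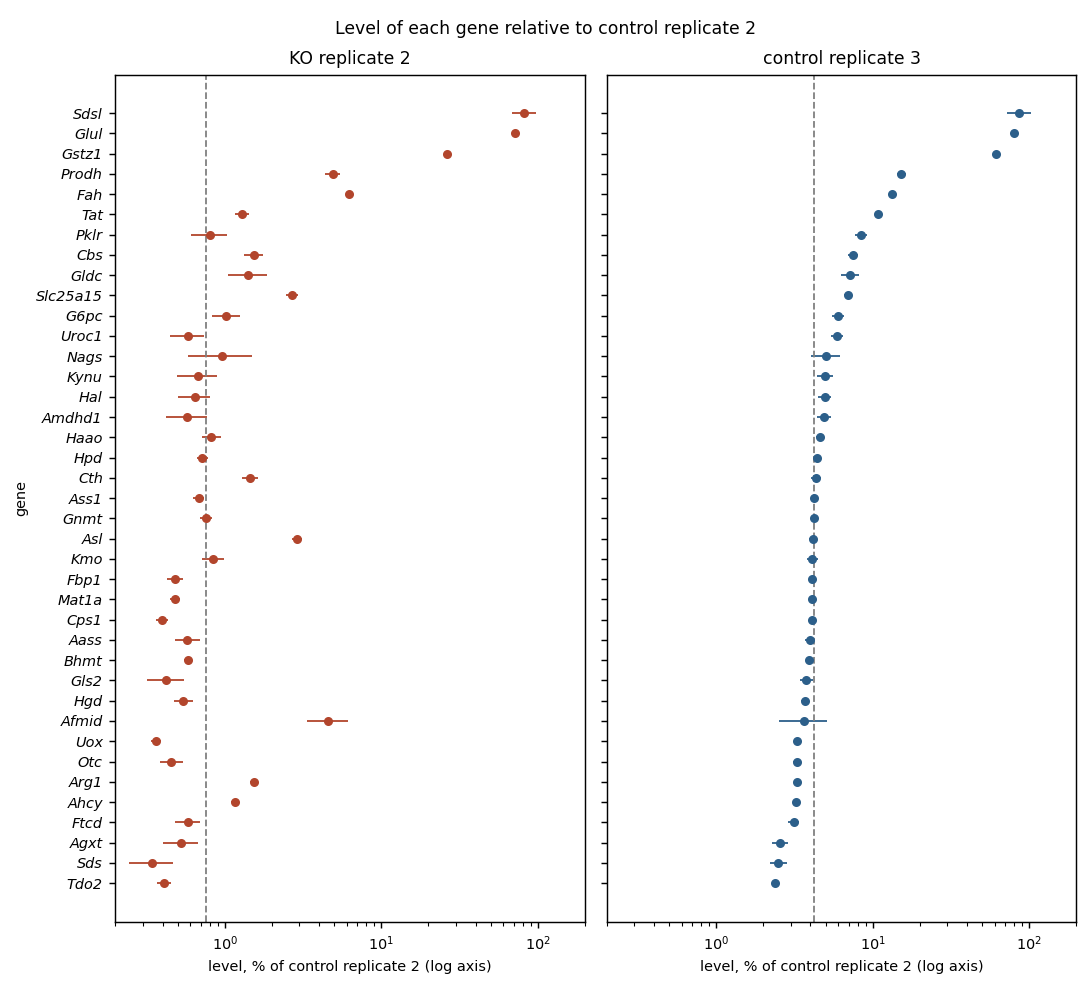
Level of each of the 39 genes in knockout (KO) replicate 2 (left) and control replicate 3 (right) as a percent of its level in control replicate 2, on a log axis, with exact 95% counting intervals and the median over all 39 genes as a dashed line (0.756% and 4.20%). Most genes lie close to the line in control replicate 3, while Sdsl, Glul and Gstz1 lie at 26.4% or more in both panels.

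Markers of the 2 ends of the liver lobule were set beside the members. Of genes expressed around the central vein, Cyp1a2 stood at 0.681% of its level in control replicate 2 in knockout replicate 2 and at 2.24% in control replicate 3. Lect2 stood at 0.792% and 2.01% in the same libraries. Of periportal genes, Cyp2f2 stood at 0.871% in knockout replicate 2 and 5.58% in control replicate 3, and Hsd17b13 at 0.306% and 2.22%. The periportal members Cps1, Ass1, Hal, Gls2 and Sds spanned 0.341% to 0.679% in knockout replicate 2 and 2.49% to 4.93% in control replicate 3. Other markers on these lists were also read in control replicate 1. Pericentral Oat stood at 6.93% in knockout replicate 2, 8.95% in control replicate 3 and 10.4% in control replicate 1. Cyp2e1 stood at 1.68%, 14.6% and 47.7% in the same order, Slc1a2 at 1.57%, 2.78% and 2.09%, and periportal Pck1 at 9.71%, 43.2% and 39.5%. Rhbg had only 18 counts in control replicate 2. By Cyp1a2, Lect2, Cyp2f2, Hsd17b13 and the periportal members, both zones were read in both libraries. Glul, the pericentral member, could not serve as a zone marker, since it stood at 58.4% of its level in control replicate 2 in knockout replicate 1 and at 129% in control replicate 1. Clec4f, the Kupffer cell lectin, had 0, 1.33 and 0.0776 CPM in knockouts and 0, 122 and 7.04 CPM in controls, in the order of libraries of the hepatocyte genes. The 3 other Kupffer cell markers were also highest in control replicate 2 but did not keep that order. Cd5l had 1.44, 14.3 and 0.194 CPM in knockouts and 2.21, 153 and 11.8 CPM in controls. Vsig4 had 6.08, 3.82 and 1.13 CPM in knockouts and 14.4, 33.5 and 3.15 CPM in controls. Timd4 had 0.458, 0.316 and 1.20 CPM in knockouts and 0.337, 12.2 and 2.02 CPM in controls, with knockout replicate 2 its lowest library.

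The remaining 12 genes were read above that limit in libraries nearly free of hepatocyte transcripts. They are Glul, Gstz1, Fah, Prodh, Sdsl, Asl, Slc25a15, Ahcy, Cth, Cbs, Gldc and Afmid. As a percent of control replicate 2, their median was 3.75%, 3.73% and 3.09% in the 3 knockouts, 2.40% in control replicate 1 and 7.32% in control replicate 3. Gstz1 averaged 564 ± 256 CPM in knockouts and 1038 ± 246 CPM in controls (SD, n = 3 each), with a log2 fold change of −0.88 ± 0.54 (SE). Fah averaged 119 ± 52.9 CPM in knockouts and 608 ± 589 CPM in controls (SD, n = 3 each), and its log2 fold change was −2.35 ± 0.84, or −1.20 ± 0.49 without control replicate 2. Adipocyte markers were also lower in knockout replicates 1 and 2 than in knockout replicate 3 and control replicate 1, at the list means given above, and their part in these values was not tested. Glul averaged 1004 ± 225 CPM in knockouts and 1400.2 ± 337 CPM in controls (SD, n = 3 each), with a log2 fold change of −0.48 ± 0.49. Sdsl had a log2 fold change of 0.26 ± 0.42, which changed sign to −0.24 without knockout replicate 3. The edgeR adjusted p-values were 0.652 for Gstz1, 0.560 for Fah, 0.807 for Glul and 0.894 for Sdsl, so none passed the test.

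**Figure D3:**
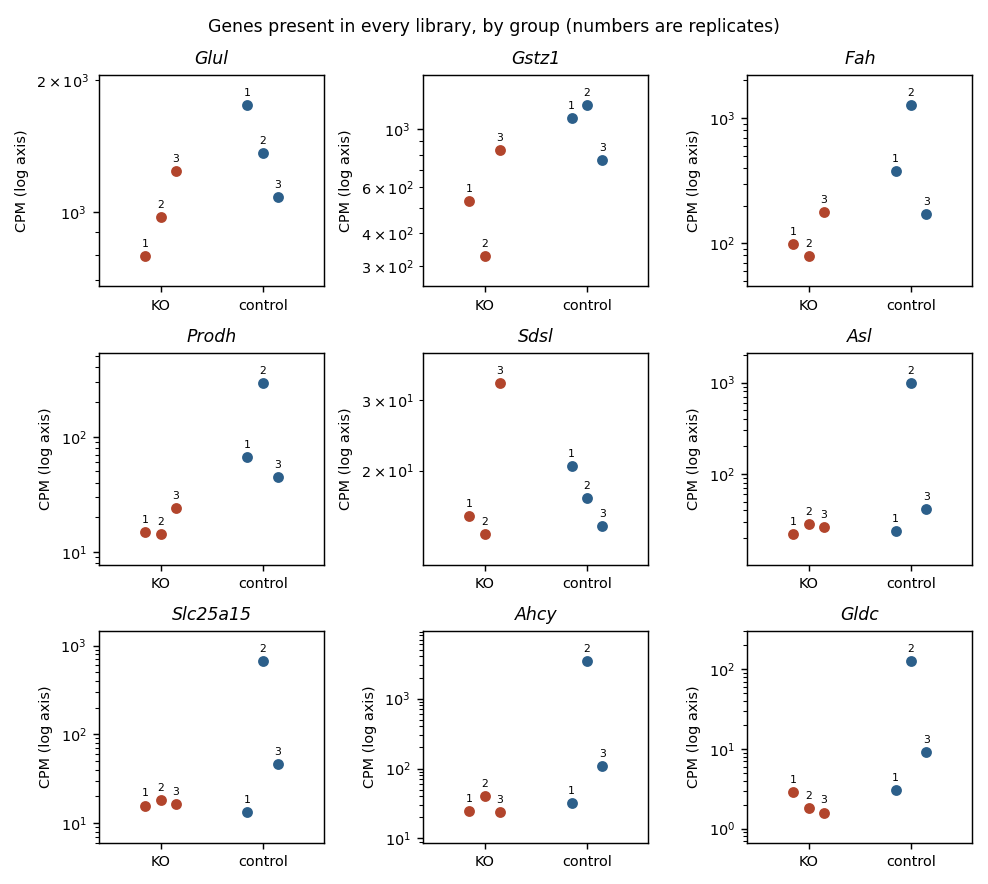
CPM (log axis, scale set per gene) of 9 genes read in every library, by group, with 3 knockout (KO) libraries left of 3 controls and the replicate number above each point. Prodh and Gldc have every knockout point below every control point, as do 5.61% of all genes tested. Asl, Slc25a15 and Ahcy differ mainly through control replicate 2, and the groups overlap in Glul, Gstz1, Fah and Sdsl.

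Several of the liver enzymes have an isozyme that serves other tissues, and both were read side by side in FPKM, which the authors scaled per kilobase. Mat1a had 0, 7.09 and 0.537 FPKM in knockouts and 0, 1511 and 59.02 FPKM in controls, and Mat2a, the form of most other tissues, had 31.96, 27.5 and 40.5 FPKM in knockouts and 47.5, 32.8 and 39.001 FPKM in controls. Mat2a was the higher of the pair in all 3 knockouts and in control replicate 1, and Mat1a in control replicates 2 and 3. Pklr had 0, 0.577 and 0.0628 FPKM in knockouts and 0.0301, 73.4 and 5.93 FPKM in controls, and Pkm, the pyruvate kinase of muscle and most other cells, 97.2, 112 and 74.4 FPKM in knockouts and 51.6, 4.57 and 58.01 FPKM in controls. G6pc had 0, 1.28 and 0.182 FPKM in knockouts and 0.0673, 128 and 7.34 FPKM in controls, and G6pc3, the form found in most tissues, 16.04, 16.1 and 22.9 FPKM in knockouts and 21.8, 1.99 and 15.8 FPKM in controls. Pkm and G6pc3 were lowest in control replicate 2 and exceeded their liver partner in each of the 5 other libraries. Fbp1 had 0.0171, 4.97 and 0.518 FPKM in knockouts and 0.325, 1054 and 41.4 FPKM in controls, and Fbp2, the muscle form, 1.29, 1.20 and 2.28 FPKM in knockouts and 1.02, 0.228 and 2.31 FPKM in controls. Fbp2 was higher than Fbp1 in knockout replicates 1 and 3 and control replicate 1. Arg2, the mitochondrial arginase, had at most 1.02 FPKM and was listed at 0 in control replicate 2. Ido1, the inducible tryptophan dioxygenase outside the liver, had at most 0.486 FPKM and was likewise listed at 0 there. Bhmt2 had 0, 1.03 and 0.0137 FPKM in knockouts and 0, 179 and 5.24 FPKM in controls, in the same order of libraries as Bhmt, and Prodh2, the hydroxyproline dehydrogenase, 0, 1.28 and 0.0827 FPKM in knockouts and 0, 165 and 4.67 FPKM in controls. Prodh2 was thus read mainly in the libraries with hepatocyte transcripts, whereas Prodh was read in all 6. Sdsl was higher than Sds in each library except control replicate 2, and Ahcyl1, a relative of Ahcy, had 14.95, 12.9 and 12.2 FPKM in knockouts and 20.6, 22.3 and 17.4 FPKM in controls. Reads of such relatives may be split uncertainly between them.

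**Figure D4:**
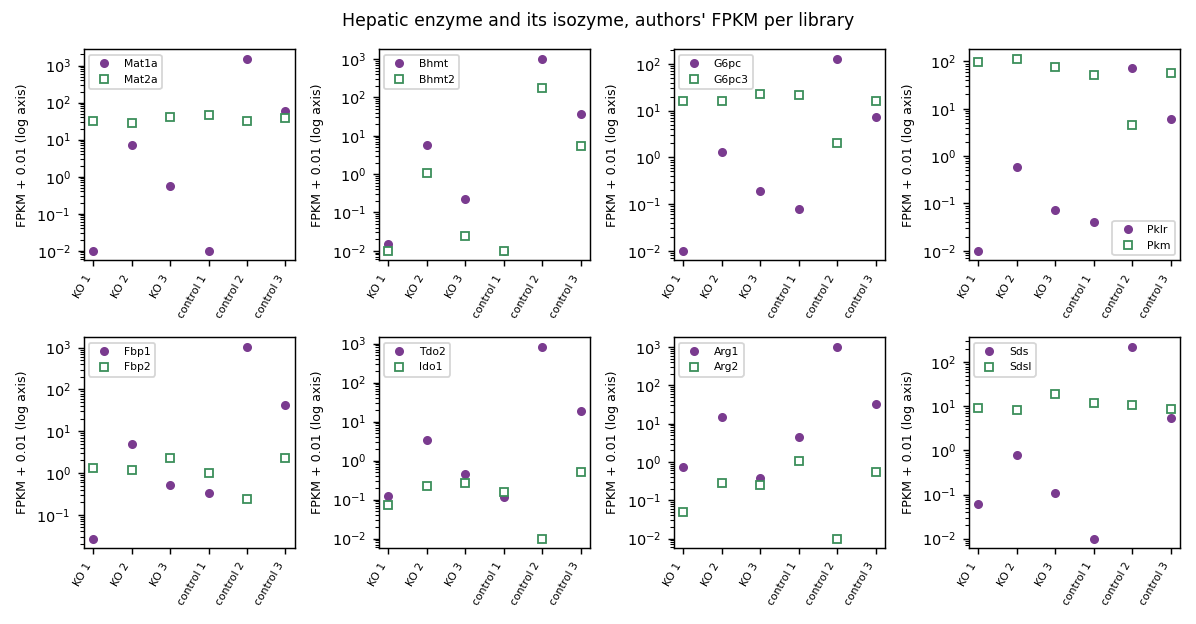
Authors' FPKM (plus 0.01, log axis) of 8 liver enzyme genes (filled circles) and their isozymes (open squares) in 3 knockout (KO) and 3 control libraries. In control replicate 2 the liver gene is the higher of each pair, and in knockout replicate 1 and control replicate 1 Mat2a, G6pc3, Pkm, Fbp2 and Sdsl are the higher ones.

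The comparison of genotypes, PD-1 deleted in myeloid cells against littermates, is the design of the study. In edgeR's quasi-likelihood test over 15928 genes, 0 of the 39 genes passed an adjusted p of 0.05, as did 0 of all genes (0.0%). At an unadjusted p under 0.05, 22 of the 39 were lower in knockouts and 0 higher, against 4.27% of all genes lower and 4.38% higher. That count of 22 was 2, 10 and 2 without knockout replicates 1, 2 and 3 in turn. It was 36, 3 and 15 without control replicates 1, 2 and 3. The count over all genes moved too, from 680 of 15928 lower with all 6 libraries. Without knockout replicates 1, 2 and 3 it was 114 of 16587, 292 of 16594 and 272 of 16736. Without control replicates 1, 2 and 3 it was 1267 of 16551, 585 of 16729 and 1178 of 16463. The median log2 fold change of the 39 genes, knockout over control, was −6.86, with 38 below 0, against a median of −0.03 over all genes with 52.0% below 0. Scaled by total counts, 38 were again below 0, against 27.6% of all genes. Without control replicate 2 the median was −2.85, with 37 below 0 and 52.9% of all genes below 0, and 3 genes (Prodh, Gldc and Fah) had an unadjusted p under 0.05 in the lower direction and 0 in the higher, against 3.5% and 5.46% of all genes. Without control replicates 2 and 3 the median turned to 2.44, and without both and knockout replicate 2 to 0.38 over the 30 genes still tested. Of the hepatocyte markers, 12 of 12 also had a log2 fold change below 0 with all 6 libraries. DESeq2 with all 6 libraries called 18 of the 39 lower and 0 higher, against 3.3% of all genes called, 1.57% lower and 1.73% higher, and gave 11 of the 39 no adjusted p. Limma-voom called 0 of the 39 and 0 of all genes. At an unadjusted p under 0.05 it had 2 of the 39 lower and 0 higher, against 226 of 15928 genes lower and 757 higher. With control replicate 2 left out DESeq2 called 1 of the 39, Prodh, against 2.7% of all genes called, 0.664% lower and 2.04% higher, and 2 had no adjusted p.

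Of single genes in this test, Ass1 had a log2 fold change of −6.47 ± 2.26 (SE), or −2.43 without control replicate 2. Gls2 had −7.31 ± 2.44, or −3.10 without it. Kmo had −6.06 ± 2.06, or −2.04. Ahcy had −5.35 ± 1.84, or −1.26, and Asl −3.78 ± 1.48, or −0.33. Their edgeR adjusted p was 0.560 in each case with all 6 libraries. Without control replicate 2 each of these 5 values lay nearer to 0. Arg1 had −5.98 ± 2.52, or −1.71 without that library. In the 3 libraries lowest in hepatocyte markers Arg1 was 1.83 and 0.970 CPM in knockout replicates 1 and 3 and 11.5 CPM in control replicate 1, a log2 fold change of −3.02 ± 0.64 with an edgeR adjusted p of 0.123. That fit has 1 control, so its SE and p take the spread from the 2 knockouts, moderated towards that of all genes. They assume that the control varies alike. Of the 30 genes tested in it, 20 had a log2 fold change above 0 and 10 below 0, against 48.1% of all genes below 0.

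Prodh kept its direction in every setting run. It averaged 17.7 ± 5.35 CPM in knockouts and 134 ± 137 CPM in controls (SD, n = 3 each), with a log2 fold change of −2.92 ± 0.80 and an edgeR adjusted p of 0.560. Without control replicate 2 the log2 fold change was −1.64 ± 0.32 with an adjusted p of 0.540, and DESeq2 gave adjusted p-values of 0.0165 with all 6 libraries and 0.00424 without control replicate 2. With control replicates 2 and 3 and knockout replicate 2 left out it was −1.75 ± 0.42 (edgeR adjusted p 0.155), under the same assumption for the lone control. Prodh was higher in knockout replicate 3 than in knockout replicates 1 and 2. By list mean, knockout replicates 1 and 2 had higher macrophage and lower adipocyte markers, and the part of this in the difference was not tested. Gldc had a log2 fold change of −4.47 ± 1.45, or −1.52 ± 0.58 without control replicate 2, and only DESeq2 with all 6 libraries called it (adjusted p 0.0150). Every knockout was below every control in 2 of the 39 genes, against 5.61% of all genes, and every knockout above every control in 0, against 9.54%.

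**Figure D5:**
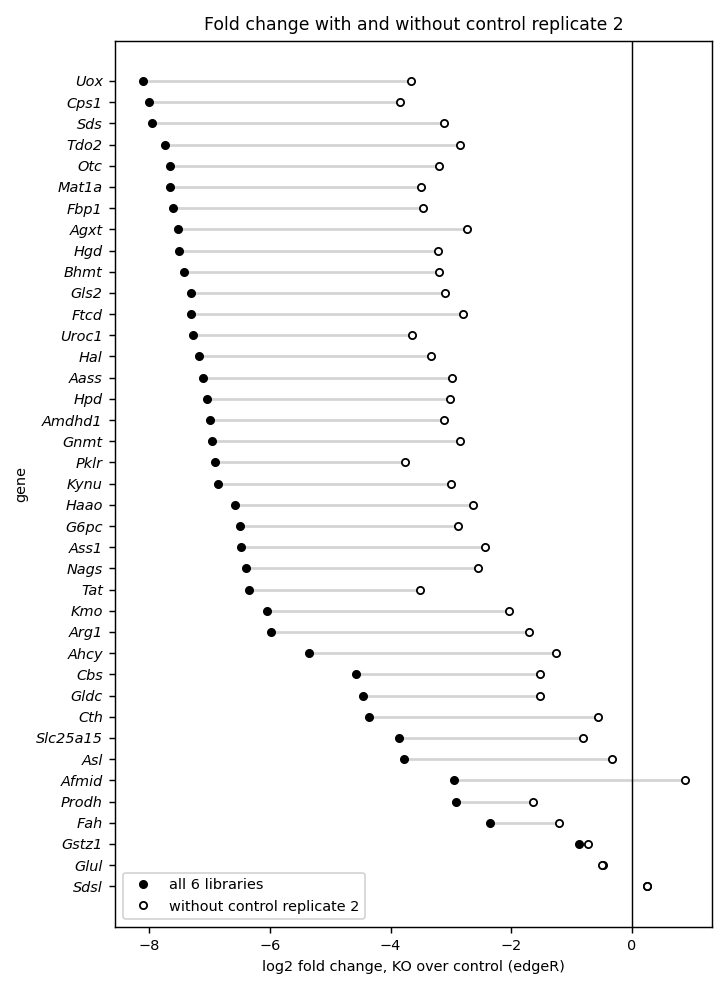
Log2 fold change, knockout (KO) over control, of each of the 39 genes in edgeR with all 6 libraries (filled) and without control replicate 2 (open). Without that library 37 of 39 values remain below 0, most lie closer to 0, Afmid changes sign, and Glul and Sdsl move little.

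A further 64 genes of the same pathways served as a wider view, of which 62 were tested. By edgeR 0 passed, with 18 at an unadjusted p under 0.05, all lower, against 4.27% of all genes lower. DESeq2 called 6 lower and 0 higher, against 1.57% of all genes lower and 1.73% higher, among them Slc38a3, Slc7a2, Qprt, Pipox and Khk. Without control replicate 2, DESeq2 called 0 of the 62, and 5 were lower and 1 higher at an unadjusted p under 0.05 in edgeR, against 3.5% and 5.46% of all genes. The median log2 fold change of the 62 was −2.36, and −0.46 without control replicate 2. Khk, ketohexokinase, had 9.90, 19.9 and 16.8 CPM in knockouts and 14.98, 1198 and 65.4 CPM in controls. Slc7a2, a carrier of arginine and lysine, had 4.22, 13.5 and 2.48 CPM in knockouts and 3.26, 783 and 43.3 CPM in controls. Both were highest in control replicate 2. Shmt1, the cytosolic serine hydroxymethyltransferase, had 2.48, 5.19 and 5.94 CPM in knockouts and 8.95, 319.8 and 17.5 CPM in controls. Kyat3, a kynurenine aminotransferase, had 8.89, 7.61 and 18.05 CPM in knockouts and 24.01, 119 and 25.9 CPM in controls. Dhtkd1, of lysine breakdown, had 5.88, 4.95 and 9.66 CPM in knockouts and 11.3, 98.4 and 16.4 CPM in controls. Each knockout lay below each control for these 3, as for 11 of the 62 in all, against 5.61% of all genes, and their edgeR adjusted p was 0.560 with all 6 libraries and 0.540 without control replicate 2, for each of the 3. Suox, sulfite oxidase of cysteine breakdown, had 7.71, 10.3 and 14.8 CPM in knockouts and 16.9, 155 and 21.96 CPM in controls. The serine-making enzymes Phgdh and Psat1 ran the other way across libraries. Phgdh had 322, 221 and 892 CPM in knockouts and 483, 6.53 and 458 CPM in controls, and Psat1 had 162, 112 and 207 CPM in knockouts and 163, 5.37 and 169 CPM in controls, with control replicate 2 the lowest library for both.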

How the data were processed

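Per the submitters' processing notes, the tools were featureCounts 1.5.0-p3, StringTie 1.3.3b, HISAT2 2.0.5 and fastp, with genome build mm10. No source used here gives the strand setting or the annotation release, so counts of overlapping genes (Afmid with Gm20708, Pklr with Hcn3, Sds with Plbd2) and of paralogs may be split uncertainly. The authors deposited raw counts per gene and FPKM values. FPKM were used to compare genes within a library and in alternatives, since the authors' library scale differs from that of total counts. Gene coordinates come from GENCODE vM21 (GRCm38, the assembly of mm10), and symbols were matched for 54409 of 54532 identifiers.

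Counts were tested with edgeR 4.0.16 in R 4.3.3 (quasi-likelihood, robust, TMM, filterByExpr, Benjamini-Hochberg over all genes tested at 0.05), and SE is the fold change over the root of F. Alternatives used DESeq2 1.42.0, limma 3.58.1, other scalings and filters, FPKM with pseudocounts of 1 and 0.1, and libraries left out. The tests were also run on simulated counts drawn around a common mean per gene, apart from genes given a set change. No simulated library was of mixed tissue, so that check says nothing about libraries such as control replicate 2. An exact two-sided permutation test of 3 against 3 libraries cannot go below 0.1. Libraries of a group differed by 56.8 to 1112 chi-square per degree of freedom, so each counts as 1 sample. The labels do not state that each came from its own animal, so a p-value covers the spread among these libraries, which may be technical.

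The members, the lists and the libraries singled out were chosen with earlier results of these data known. Each member at or over 10 CPM in any library was to be given in every library, which held for all 39, and of the other pathway genes those of smallest p, some isozymes, and Phgdh and Psat1, which were chosen after their values were seen. Protein sequences were not used here, and some other pathway genes are not reported here. Figures were drawn with matplotlib 3.10.9.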

Additional observations from a re-analysis of the deposited data

How the results depend on the processing

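No paired analysis was possible because the labels give no replicate numbers shared between the groups. The count of the 39 genes called was 0 in edgeR under each scaling, filter and left-out library, in limma-voom and on FPKM, and 18 in DESeq2, or 1 in DESeq2 with control replicate 2 left out, an alternative chosen after seeing the data. Of the other pathway genes DESeq2 called 6, or 0 with control replicate 2 left out, and of all genes 525, or 452 with control replicate 2 left out, against 0 in edgeR, which called 18 with control replicates 2 and 3 and knockout replicate 2 left out. With 1 library left out at a time these 3 counts stayed at 0 in edgeR. The median log2 fold change of the 39 genes, −6.86, ranged from −8.60 to −2.85 with 1 library left out, was −2.91 on FPKM with pseudocount 1, −2.88 in DESeq2 with control replicate 2 left out, 2.44 without control replicates 2 and 3 and 0.38 without these and knockout replicate 2. Scaling by total counts moved the median of all genes to 0.34, against −0.03 with TMM, and the share of genes below 0 changed with it, while the 39 genes kept a median of −5.80. The cause of these shifts was not tested beyond the libraries named.

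The median level of the 39 genes relative to control replicate 2, with genes under 3 counts set to 3, was 0.0751%, 0.756% and 0.107% in the 3 knockouts, 0.0596% in control replicate 1 and 4.20% in control replicate 3. In the same order and scaled by total counts it was 0.162%, 1.70%, 0.206%, 0.105% and 8.50%. On FPKM control replicate 3 stood at 4.03%. With a floor of 10 counts knockout replicate 1 stood at 0.0993% and control replicate 1 at 0.134%. With members at or over 100 CPM alone, knockout replicate 1 stood at 0.0567%.

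Of 12 genes given a fold change, Prodh, Gldc, Fah, Gstz1, Glul and Ahcy kept their direction in all 17 alternatives. Without control replicates 2 and 3 the log2 fold change turned to 1.499 for Ass1, 0.12 for Asl, 0.23 for Arg1, 1.31 for Gls2 and 0.87 for Kmo. Without knockout replicate 2 as well it was 0.84 for Ass1, 0.026 for Asl, 0.41 for Gls2 and 0.34 for Kmo. Sdsl ranged from −0.24 to 0.48 with 1 library left out. Depth limits the genes near 0 in knockout replicate 1 and control replicate 1, where fewer than 3 counts cannot be told from none.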
